A study of Mus musculus with 15 samples.

Results

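The Tox family consists of 4 mouse genes, Tox, Tox2, Tox3 and Tox4, and all 4 were measured among the 19937 genes that had a probe set with a single gene symbol. Each gene had 1 such probe set, Tox 10511416, Tox2 10478364, Tox3 10580522 and Tox4 10414693, and no probe set that it shared with another gene. The genes lie on chromosomes 4, 2, 8 and 14 in the order given. The family was chosen by the Tox level, which separated GMPs of the fl/p30 genotype from GMPs of the fl/BRM2 genotype, so the values of those 6 arrays for Tox are a description and are given with no test. Tests of Tox are given only between groups that the choice did not use, and the other 3 genes were tested wherever those 2 groups were not set against each other.

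TOX proteins are nuclear factors that bind DNA through an HMG box, a domain that bends the double helix and recognises its shape more than its letters. TOX itself is known from the thymus, where it is needed for CD4 T-cell development, from the early steps of NK and other innate lymphoid cells, and from chronically stimulated CD8 T cells, where calcium signalling through calcineurin and NFAT induces it and it sustains expression of inhibitory receptors such as PD-1. TOX2 acts in follicular helper T cells and NK cells, TOX3 is best known from neurons and mammary epithelium, and TOX4 is a broadly expressed subunit of the PTW/PP1 phosphatase complex on chromatin.

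The arrays came from bone marrow of female C57BL/6 mice, 3 weeks after conditional knockout, in 5 groups of 3 arrays. GMPs, the granulocyte-macrophage progenitors, came from Cebpa fl/p30; Mx1Cre, fl/BRM2; Mx1Cre and fl/+; Mx1Cre mice, and preGMs, the stage before them, from fl/p30; Mx1Cre mice and from +/+ mice whose label writes the Cre as Mx1Ce. Both stages were sorted as Lin-, Sca1-, cKit+, CD150- and CD41- cells, preGMs being FcgRII- and Endoglin- and GMPs FcgRII+. Cebpa encodes C/EBPα, a transcription factor of the myeloid lineage, of which the p30 allele gives only the shorter isoform and the BRM2 allele a form with a changed basic region. Every group carried Mx1-Cre, a recombinase under an interferon-inducible promoter that acts in many blood cells and in other tissues, and the GMP control differed from the preGM control in having 1 floxed Cebpa allele. In fl/p30 mice, both stages were taken from the same 3 animals, which share their replicate number, while the other groups came from separate animals, and no age is stated in the labels.

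RNA was amplified from 20 ng, hybridised to Affymetrix Mouse Gene 1.0 ST arrays, and deposited as log2 values after RMA. Array medians lay between 6.03 and 6.23. Of the genes of the sorted surface markers and their relatives, Fcgr3, which encodes the related receptor FcgRIII, lay between 9.01 and 9.70 in the 9 GMP arrays and between 6.12 and 7.18 in the 6 preGM arrays. Fcgr2b, which encodes a form of FcgRII, the receptor named in the gate, overlapped between the stages. It reached 7.45 on the highest preGM +/+ array. The lowest arrays of GMP fl/p30 and GMP fl/BRM2 stood below that, the latter at 7.23, with group means of 7.59 and 7.62. The GMP fl/+ arrays lay at 8.38 or above and did not overlap with preGMs. Eng, which encodes Endoglin, lay between 6.59 and 6.99 in GMPs and between 7.05 and 7.51 in preGMs, although the preGM gate was Endoglin-. Mpo, the myeloperoxidase of granule-forming progenitors, lay at 12.44 or above on every array. Elane, the gene of another granule enzyme, was less even. It ran from 6.47 to 10.85 in GMP fl/p30, from 7.35 to 10.59 in GMP fl/BRM2 and from 10.90 to 11.72 in GMP fl/+. The root mean square within-group SD was largest in GMP fl/+ (0.319) and GMP fl/p30 (0.269) and smallest in preGM +/+ (0.165), while the test uses 1 shared estimate. Cebpa lay between 8.10 and 9.30 on all arrays, and as the position of its probes relative to the deleted and changed parts is not known here, its level checks nothing about the alleles.

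Of the 4 genes, Tox had the widest range of levels. Its log2 level was 10.94, 10.58 and 9.80 on the fl/p30 GMP arrays, 7.45, 8.51 and 8.60 on those of fl/BRM2, and 6.35, 6.60 and 6.07 on those of fl/+. In preGM fl/p30 it was 10.55, 10.33 and 10.22, and in preGM +/+ 7.93, 7.50 and 7.71. The fl/p30 arrays of both stages thus stood above every array of the other 3 groups, and the fl/+ GMPs stood below every other array. The arrays of the fl/+ GMPs lay near the array medians, close to the background of this platform, so that differences from them may understate the change.

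**Figure D1:**
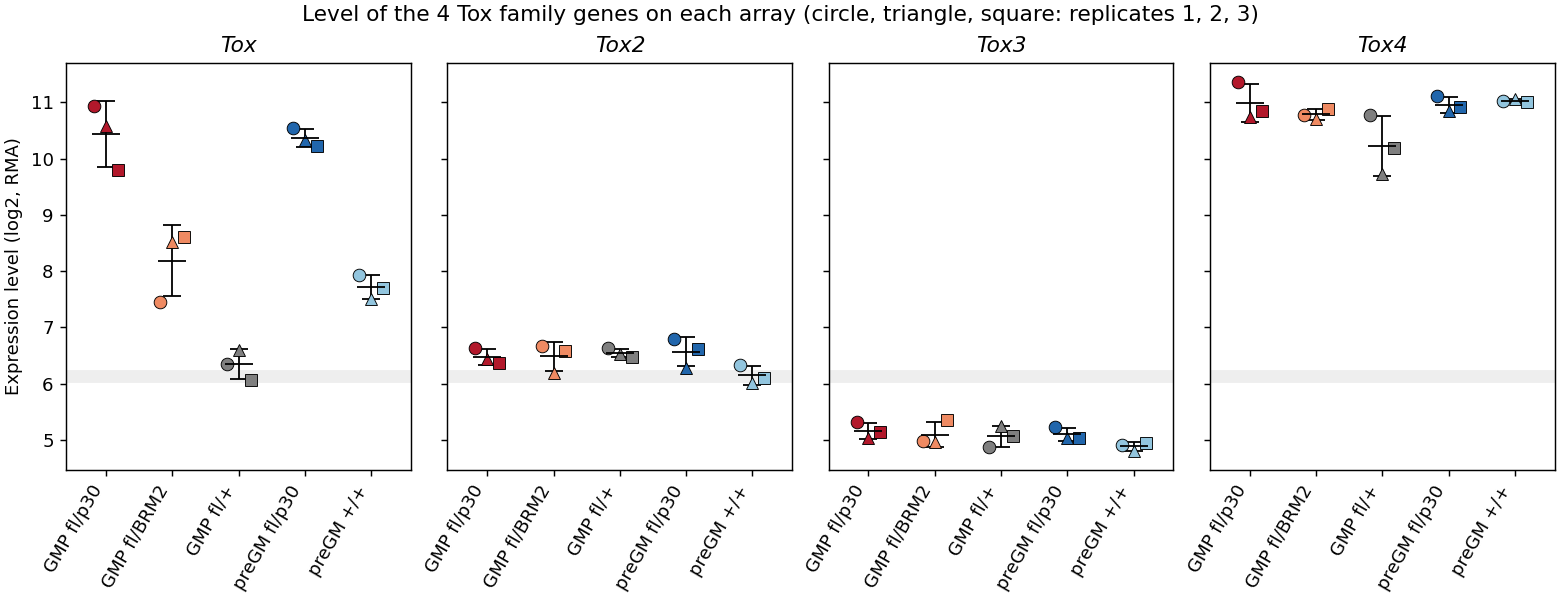
Log2 level of Tox, Tox2, Tox3 and Tox4 on each of the 15 arrays, by group; circles, triangles and squares are replicates 1, 2 and 3, bars are the group mean and SD, and the grey band spans the array medians (6.03 to 6.23). Tox runs from 6.07 to 10.94 with the fl/p30 arrays of both stages on top, while Tox2 stays between 6.01 and 6.80, Tox3 between 4.80 and 5.34 and Tox4 at 9.72 or above.

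Ordered by group mean, Tox stood at 10.44 ± 0.58 in GMP fl/p30, at 10.37 ± 0.17 in the preGMs of the same mice, 8.19 ± 0.64 in GMP fl/BRM2, 7.71 ± 0.21 in preGM +/+ and 6.34 ± 0.27 in GMP fl/+ (SD, n = 3 each). Neighbours in that order did not differ beyond their spread in 2 places: the arrays of the 2 fl/p30 groups overlapped, and so did those of GMP fl/BRM2 and preGM +/+. The fl/BRM2 arrays were themselves uneven, with replicate 1 more than 1 log2 unit below the other arrays of its group.

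In GMPs, the Tox level was 2.25 ± 0.30 log2 units higher in fl/p30 than in fl/BRM2 (mean difference ± SE, 4.76-fold). This is the difference for which the family was chosen, and it ranked 1 of 19937 genes, ahead of the next named genes, Ccl5 (1.57), which encodes a T-cell and monocyte attractant, and Klrb1b (1.57), which encodes an NK-cell receptor. Over all genes, Tox included, 0.00502% were called higher between these groups at an adjusted p under 0.05 and 0% were called lower. The share called higher amounts to 1 gene in a fit that includes Tox, so it is no background independent of Tox. For 4.67% of all genes, Tox among them, the 3 fl/p30 arrays lay above the 3 fl/BRM2 arrays. These shares stand beside a chosen gene and nothing is read from them. Tox2 (-0.01), Tox3 (0.06) and Tox4 (0.20) differed by less than their SE (0.15, 0.13 and 0.21) between the 2 mutants, and their arrays overlapped. As the cells were measured in bulk, a larger share of Tox-expressing cells and more Tox RNA per cell cannot be told apart in any of these comparisons.

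Against the shared fl/+ control, Tox was 4.10 ± 0.30 log2 units higher in GMP fl/p30 (17.1-fold, rank 4 of all genes) and 1.85 ± 0.30 higher in GMP fl/BRM2 (3.60-fold, rank 55). Both values use arrays by which Tox was chosen and the same 3 control arrays, so they stand side by side with no test. The arrays did not overlap in either comparison, as was the case for 9.16% of all genes in fl/p30 and 6.74% in fl/BRM2, in the direction of higher levels in the mutant. The smallest Tox difference when any of the compared arrays was left out was 3.85 for fl/p30 and 1.64 for fl/BRM2. Among 16 myeloid progenitor markers, which include genes of the sort gate, Itga2b (CD41) and Cebpa rose and Csf2ra and Csf3r fell in GMP fl/p30 against GMP fl/+. These 2 higher and 2 lower stand beside 4.69% and 1.37% of all genes. Csf2ra and Csf3r also fell in GMP fl/BRM2, where 0 rose, beside 0.642% lower and 1.89% higher. None of these calls was kept in all 6 repeats with 1 array left out. The part of these markers in the Tox values was not tested.

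In preGMs, the arrays of which had no part in the choice, Tox rose 6.29-fold in fl/p30 over +/+ (log2 difference 2.65 ± 0.30, 95% interval 2.01 to 3.29, n = 3 each, limma adjusted p = 0.000488). All 3 fl/p30 arrays lay above all 3 +/+ arrays, and Tox ranked 4 of all genes. It was the 1 member of 4 that was called, beside 0.647% of all genes called higher and 1.03% called lower. Markers of myeloid progenitors also differed between these groups: the mean of 16 of them, relative to the array median, ran from 1.94 to 2.25 in preGM fl/p30 and from 2.63 to 2.88 in preGM +/+, with no overlap. Of the 16, 2 fell and 0 rose, Flt3, a cytokine receptor gene of early progenitors (-1.79, adjusted p = 0.00462, kept in 6 of 6 repeats with 1 array left out), and Csf1r, the macrophage growth factor receptor gene (-2.04, adjusted p = 0.0394, kept in 0 of 6). Elane, the neutrophil elastase gene, lay between 5.36 and 5.61 in preGM fl/p30 and between 8.19 and 8.98 in preGM +/+ (adjusted p = 0.106). The test pools the spread of all groups, and the Elane SD was 2.20 in GMP fl/p30. The part of these markers in the Tox result was not tested. The arrays are new to the choice but the mice are not, since each fl/p30 animal gave cells of both stages. Leaving out any of the 6 arrays kept the call, with differences from 2.55 to 2.76 and adjusted p-values of at most 0.00573. Non-overlapping arrays with the higher level in fl/p30 were found for Tox and Tox3, and for 12.4% of all genes.

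Between the stages, the Tox difference was close to 0 in fl/p30 mice, and Tox was lower at the later stage in controls. In the fl/p30 mice the GMP level differed from the preGM level by 0.07 ± 0.30 (95% interval -0.57 to 0.71), given with no test. Animal by animal, GMP minus preGM was 0.39 in the mouse of replicate 1, 0.25 in that of replicate 2 and -0.42 in that of replicate 3, so the pairs differed in direction. In the controls, Tox fell by 1.37 on the log2 scale in GMP fl/+ relative to preGM +/+ (SE 0.30, 2.59-fold, limma adjusted p = 0.0131), with all 3 GMP arrays below all 3 preGM arrays. That call was lost without preGM +/+ replicate 1, where the difference was -1.26 with an adjusted p of 0.0606. Stage and genotype cannot be told apart in the controls, since the GMPs were fl/+ and the preGMs +/+. The difference between fl/p30 and control was 1.44 ± 0.42 log2 units larger in GMPs than in preGMs, a value that includes arrays of the choice and is given with no test. It takes in the control difference of -1.37 and the fl/p30 difference of 0.07. Stage and control genotype therefore cannot be told apart in it either.

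**Figure D2:**
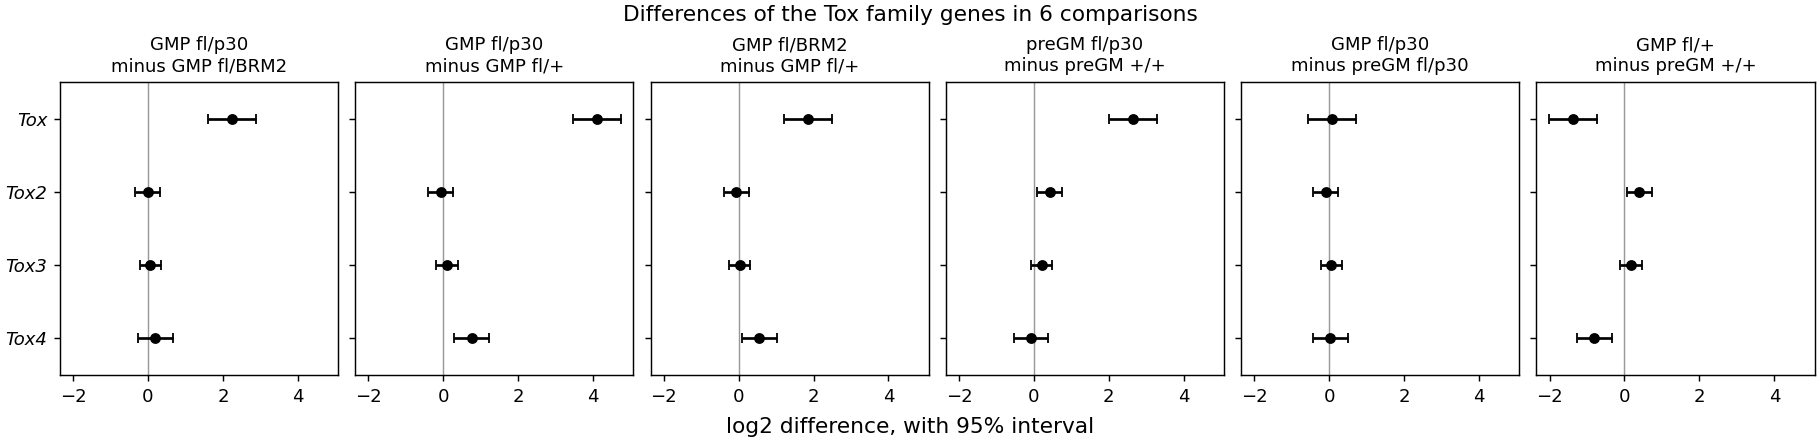
Log2 differences with 95% intervals for the 4 family genes in 6 comparisons, the group named first in each heading minus the other. Tox lies furthest from 0 in 5 of the 6 panels and at 0.07 between the stages of fl/p30 mice; Tox2, Tox3 and Tox4 stay within 1 log2 unit of 0 throughout.

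Tox4 was at a high level everywhere and showed its lowest values in the GMP control. Its log2 level was 11.37, 10.74 and 10.85 in GMP fl/p30, while GMP fl/BRM2 gave 10.77, 10.70 and 10.88, and it was 10.78, 9.72 and 10.18 in GMP fl/+, 11.11, 10.84 and 10.91 in preGM fl/p30, and 11.02, 11.06 and 11.01 in preGM +/+. The spread within GMP fl/+ (SD 0.53) was the widest of any group for this gene, and its replicate 1 overlapped the mutant arrays.

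The Tox4 level fell by 0.80 on the log2 scale in GMP fl/+ relative to preGM +/+ (SE 0.21, limma adjusted p = 0.0326). It kept this call without GMP fl/+ replicate 1 (-1.08, adjusted p = 0.00135) and lost it when any 1 of the other 5 arrays was left out (adjusted p up to 0.131, the highest being without GMP fl/+ replicate 2, where the difference was -0.55). Tox and Tox4 were thus 2 of 4 members called lower at the control step, beside 6.02% of all genes called lower and 4.19% called higher. Both also had non-overlapping arrays, lower in GMP fl/+, as had 12.9% of all genes. In GMPs, Tox4 was 0.76 ± 0.21 higher in fl/p30 than in fl/+ (adjusted p = 0.0514) and 0.56 ± 0.21 higher in fl/BRM2 than in fl/+ (adjusted p = 0.226), and neither difference passed. With the animal as a replicate block the fl/p30 difference did pass (adjusted p = 0.0481), and without GMP fl/+ replicate 1 both did (1.03, adjusted p = 0.0018, and 0.83, adjusted p = 0.00927). The Tox4 difference between preGM fl/p30 and preGM +/+ was -0.08 (95% interval -0.53 to 0.38, adjusted p = 0.908), and between GMP fl/p30 and preGM fl/p30 it was 0.03 (-0.43 to 0.49, adjusted p = 0.975).

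Tox2 stayed within less than 1 log2 unit across all 15 arrays. Relative to the array median it ran from -0.04 to 0.67. This is near the level of Tox in GMP fl/+, close to the background, so its differences may be understated too. It lay at 6.63, 6.43 and 6.36 in GMP fl/p30, while GMP fl/BRM2 gave 6.67, 6.19 and 6.58, and it lay at 6.63, 6.53 and 6.47 in GMP fl/+, 6.80, 6.29 and 6.62 in preGM fl/p30, and 6.33, 6.01 and 6.09 in preGM +/+. The preGM +/+ arrays held the lowest mean. The difference of preGM fl/p30 from them was 0.42 ± 0.15 (adjusted p = 0.224) with overlapping arrays. That of GMP fl/+ from them was 0.40 ± 0.15 (adjusted p = 0.102) with arrays that did not overlap, as was so in this direction for 21.1% of all genes. Neither passed, nor did the differences of GMP fl/p30 (-0.07, 95% interval -0.40 to 0.26) and GMP fl/BRM2 (-0.06, -0.39 to 0.27) from GMP fl/+.

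Tox3 lay below the array median on all 15 arrays, between 4.80 and 5.34, so its differences are between values near the background. In preGMs its level was 5.24, 5.02 and 5.02 in fl/p30 and 4.90, 4.80 and 4.94 in +/+, a difference of 0.21 ± 0.13 (adjusted p = 0.503) that did not pass although the arrays did not overlap. In GMPs it differed from fl/+ by 0.10 (95% interval -0.19 to 0.38) in fl/p30 and by 0.03 (-0.25 to 0.32) in fl/BRM2, and the arrays of all 3 GMP groups overlapped.

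Of the 3 members tested in GMP fl/p30 against GMP fl/+, 0 were called, beside 4.69% of all genes called higher and 1.37% called lower. Likewise 0 of 3 were called in GMP fl/BRM2 against GMP fl/+, with 1.89% of all genes higher and 0.642% lower, and 0 of 3 between GMP fl/p30 and preGM fl/p30, with 0.356% higher and 0.286% lower. The fit for the fl/p30 stages does not pair the animals. That count stayed at 0 in all 15 alternatives, the animal block among them. For the stage dependence of the p30 difference, 0 of 3 were called, beside 0.00502% of all genes higher and 0% lower. The controls in that comparison differ in genotype as well as stage. The unadjusted p was under 0.05 for Tox4 against fl/+ in both mutants and for Tox2 (0.0393) and Tox4 (0.0154) in the stage dependence. Between the stages of fl/p30 mice it was under 0.05 for 0 of the 3.

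The lymphoid programmes in which TOX is known to act were followed in 36 genes of transcription factors and receptors, of which 33 were measured. In GMP fl/p30 against GMP fl/+, 11 of the 33 rose and 0 fell, beside 4.69% of all genes called higher and 1.37% called lower. The median of the 33 was 0.077, beside -0.04 over all genes. The risen genes included Id2, an inhibitor of E proteins needed for innate lymphoid cells (2.73 ± 0.43, adjusted p = 0.00169), Rora, a nuclear receptor of type 2 innate lymphoid cells (2.17 ± 0.26, adjusted p = 0.000232), and Ikzf2, which encodes Helios (2.01 ± 0.24, adjusted p = 0.000237). The inhibitory receptor genes Lag3 (1.97), Pdcd1, which encodes PD-1 (1.34), and Havcr2, which encodes TIM-3 (1.25), rose too. So did Zbtb16, which encodes PLZF (1.57), Tcf12 (0.93), Satb1 (0.78), Runx1 (0.94) and Runx3 (0.76). The other 22 were not called. Receptor genes that did not pass included Entpd1, at a mean of 6.32 in GMP fl/p30 and 7.095 in GMP fl/+. Ctla4 averaged 4.91 and 5.07 there, and Cd200r1 5.74 and 5.75. The factor gene Nfil3 averaged 7.61 and 8.24, and Gata3 5.375 and 5.362. When replicate 1 or 2 of GMP fl/p30 or replicate 3 of GMP fl/+ was left out, 9 of the 11 kept their call, and Runx1 and Runx3 did not.

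In GMP fl/BRM2 against GMP fl/+, 8 of the 33 rose and 0 fell, beside 1.89% of all genes called higher and 0.642% called lower. The median of the 33 was 0.013, beside -0.02 over all genes. Ikzf2 (1.85), Lag3 (1.53), Satb1 (0.86), Havcr2 (1.03), Rora (1.28), Zbtb16 (1.13), Runx1 (0.88) and Id2 (1.72) made up the 8. This count leans on single arrays: of the 8, 1 kept its call without GMP fl/BRM2 replicate 2 (Ikzf2), 4 without GMP fl/BRM2 replicate 3, and 5 without either GMP fl/+ replicate 2 or GMP fl/+ replicate 3. In GMPs, Pdcd1 stood at 7.61 ± 0.36 in fl/p30, 6.33 ± 0.14 in fl/BRM2 and 6.27 ± 0.22 in fl/+ (SD, n = 3 each), so its fl/BRM2 arrays lay at the level of the control while its fl/p30 arrays lay above both. Between the 2 mutants the differences were 1.28 for Pdcd1, 1.01 for Id2, 0.89 for Rora, 0.79 for Runx3 and 0.16 for Ikzf2, and 0 of the 33 were called.

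In preGM fl/p30 against preGM +/+, 4 of the 33 rose and 0 fell, beside 0.647% of all genes called higher and 1.03% called lower. The median of the 33 was 0.064, beside 0.025 over all genes. Lag3 rose by 1.56 ± 0.27 (adjusted p = 0.0101), Zbtb16 by 1.17, Ikzf2 by 1.12 and Bcl11b, a T-lineage commitment factor, by 0.52. Lag3 kept its call in 4 of 6 repeats with 1 array left out, failing without preGM +/+ replicate 2 or 3, and the other 3 genes kept theirs in 0 of 6. Id2 (0.75, adjusted p = 0.46) and Pdcd1 (0.72, adjusted p = 0.0838) did not pass at this stage. Between the stages of fl/p30 mice 0 of the 33 were called, beside 0.356% of all genes called higher and 0.286% called lower. That fit does not pair the animals. Over the alternative settings that keep all arrays, 0 to 5 of the 33 were called higher there and 0 to 1 lower. At the control step Zbtb7b, which encodes the CD4-lineage factor ThPOK, rose by 0.92, and Satb1 fell by 1.51, Tcf12 by 0.72 and Havcr2 by 0.69. These 1 higher and 3 lower of the 33 stand beside 4.19% and 6.02% of all genes. Havcr2 kept that call in 0 of 6 repeats, and Tcf12 lost it without preGM +/+ replicate 1 or GMP fl/+ replicate 2.

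**Figure D3:**
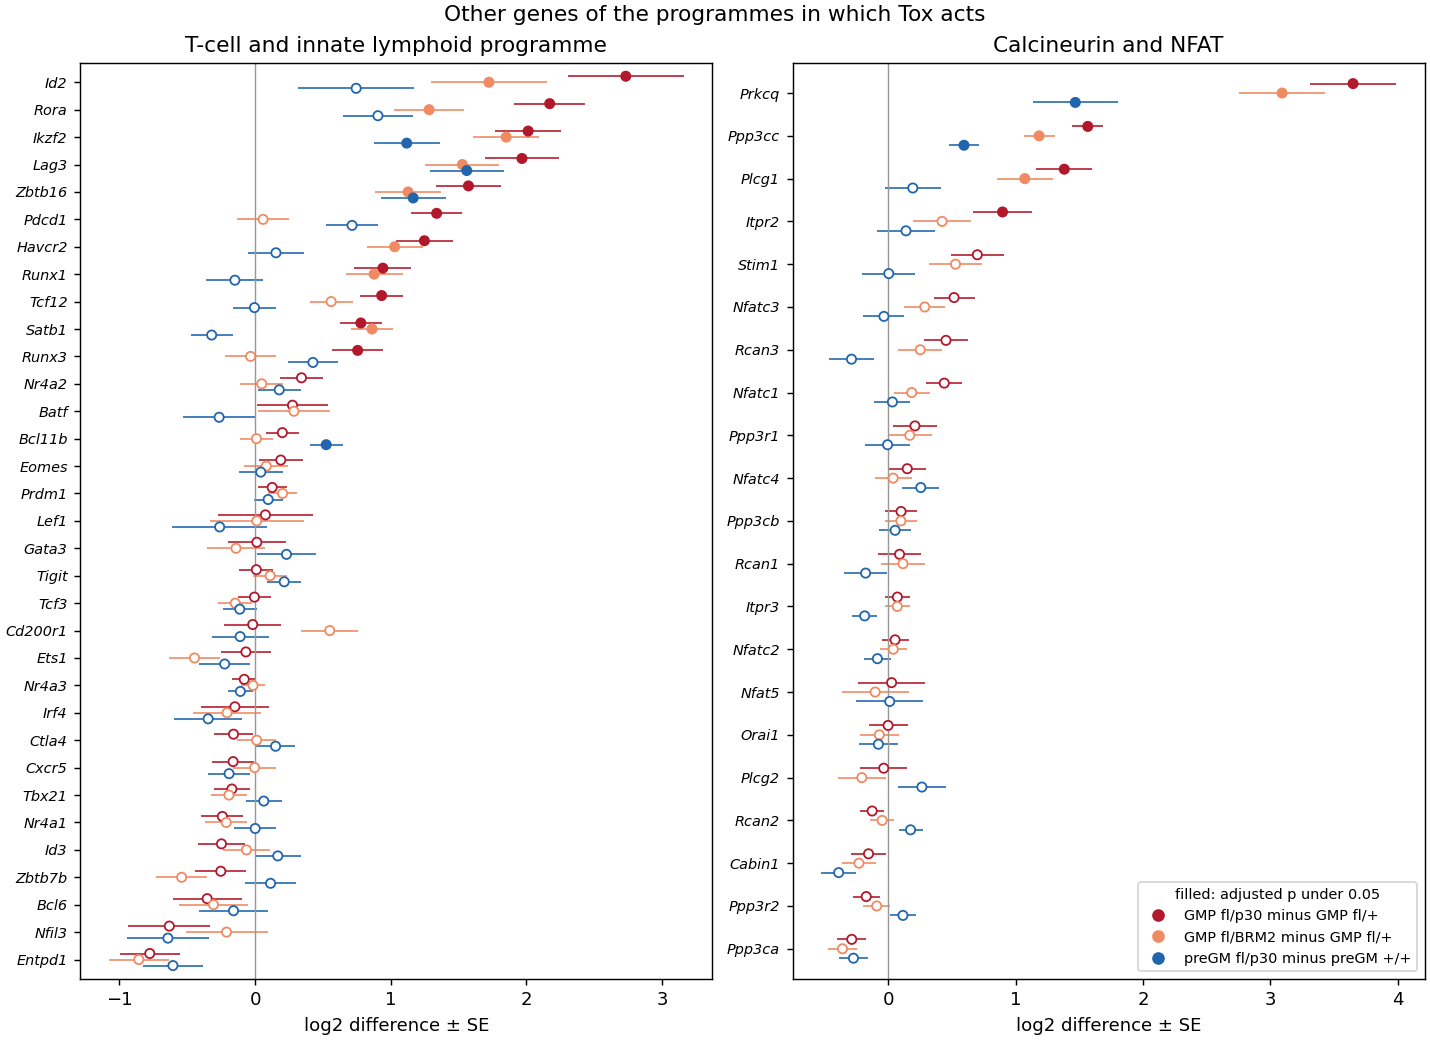
Log2 differences ± SE of the 33 measured factors and receptors of the T-cell and innate lymphoid programmes (left) and of 21 calcineurin and NFAT genes (right), for GMP fl/p30 against GMP fl/+, GMP fl/BRM2 against GMP fl/+ and preGM fl/p30 against preGM +/+; filled points have an adjusted p under 0.05. The called genes other than Bcl11b sit at the top of each panel, and for Pdcd1 and Runx3 the fl/BRM2 point stays near 0.

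Calcineurin and NFAT signalling, the known inducer of Tox in T cells, was followed in 21 measured genes. In GMP fl/p30 against GMP fl/+, 4 rose and 0 fell, beside 4.69% and 1.37% of all genes (median 0.101, beside -0.04 over all genes). They were Prkcq, which encodes protein kinase C theta of the T-cell receptor pathway (3.65 ± 0.34, adjusted p = 3.32e-05), Ppp3cc, a catalytic calcineurin subunit (1.57 ± 0.12, adjusted p = 9.55e-06), Plcg1, a phospholipase (1.38), and Itpr2, a calcium release channel (0.90). Itpr2 kept its call in 2 of 6 repeats, those that lacked replicate 3 of either group. In GMP fl/BRM2 against GMP fl/+, Prkcq (3.09), Ppp3cc (1.18) and Plcg1 (1.07) rose, Plcg1 not without GMP fl/BRM2 replicate 2 or GMP fl/+ replicate 2. These 3 of 21 stand beside 1.89% of all genes called higher. In preGM fl/p30 against preGM +/+, Prkcq (1.47) and Ppp3cc (0.59) rose, and both lost the call in each of the 6 repeats with 1 array left out. These 2 of 21 stand beside 0.647% of all genes called higher. Prkcq lay between 8.97 and 9.07 in preGM fl/p30 and between 7.47 and 7.59 in preGM +/+. Ppp3cc lay between 7.96 and 8.06 and between 7.22 and 7.52. The test pools this spread with that of the GMP arrays, where the Prkcq SD was 0.80 in fl/p30. At the control step Prkcq fell by 2.06, Ppp3cc by 1.39 and Rcan3 by 0.67, while Ppp3ca, another catalytic subunit, rose by 0.43. Of these, Prkcq and Ppp3cc kept the call in all 6 repeats, Rcan3 in 2 and Ppp3ca in 1. The 3 lower and 1 higher of 21 stand beside 6.02% and 4.19% of all genes.

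The factors themselves were not among the called genes: Nfatc1 differed by 0.44 (adjusted p = 0.0853) and Nfatc2 by 0.05 (adjusted p = 0.837) in GMP fl/p30 against GMP fl/+. Nr4a1, Nr4a2 and Nr4a3, nuclear receptor genes known to act with TOX in exhausted T cells, differed there by -0.24, 0.34 and -0.08, and none passed. Prkcq had, like Tox, its lowest level in GMP fl/+ (5.48 ± 0.48) and higher ones in GMP fl/p30 (9.13 ± 0.80), GMP fl/BRM2 (8.58 ± 0.51), preGM fl/p30 (9.01 ± 0.05) and preGM +/+ (7.54 ± 0.07; SD, n = 3 each).

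The other subunits of the PTW/PP1 complex of TOX4 gave no call. Ppp1r10, the scaffold PNUTS, differed by 0.12 (adjusted p = 0.576) in GMP fl/+ against preGM +/+, Wdr82 by -0.46 (adjusted p = 0.111), and the catalytic subunits Ppp1ca, Ppp1cb and Ppp1cc by -0.38, -0.33 and -0.27. Of these 5, 0 were called in any of the comparisons.

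Among the other HMG-box genes, 37 of 40 were measured. In GMP fl/p30 against GMP fl/+, Hbp1, a transcriptional repressor (1.20 ± 0.19, adjusted p = 0.00202), and Sox4, a progenitor factor that C/EBPα is known to repress (1.02 ± 0.20, adjusted p = 0.00848), rose, and Hmgxb3 fell by 0.46 (median of the 37 0.036, beside -0.04 over all genes). These 2 higher and 1 lower of 37 stand beside 4.69% and 1.37% of all genes. The Hmgxb3 call was kept in 2 of 6 repeats with 1 array left out. In GMP fl/BRM2 against GMP fl/+, Sox4 (0.91), Hbp1 (0.82) and Hmgb1 (0.74) rose, and none of the 3 kept the call without GMP fl/BRM2 replicate 2 or 3 or without GMP fl/+ replicate 2. The 3 of 37 stand beside 1.89% of all genes called higher. In preGM fl/p30 against preGM +/+ 0 of the 37 were called, beside 0.647% of all genes called higher and 1.03% lower. The median was 0.156, beside 0.025 over all genes. At the control step 7 of the 37 fell and 0 rose, beside 6.02% and 4.19% of all genes (median 0.1, beside 0.085), the Wnt pathway factor gene Tcf7l2 (-1.14), the mitochondrial factor gene Tfam (-1.19), Hmgb1 (-0.87) and Sox4 (-0.87) among them. Of the 7, 2 kept the call without preGM +/+ replicate 1, and 3 without preGM +/+ replicate 2 or 3. Between the stages of fl/p30 mice Tcf7l2 fell by 1.21, a call lost without preGM fl/p30 replicate 3.

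Markers of T and NK cells differed between the 3 GMP groups in the same order as Tox, and their part in the Tox results was not tested. The mean of the 28 measured markers, relative to the array median, ran from 0.199 to 0.261 in GMP fl/p30, from -0.201 to -0.097 in GMP fl/BRM2, from -0.391 to -0.301 in GMP fl/+, from 0.052 to 0.093 in preGM fl/p30 and from -0.1 to 0.066 in preGM +/+. The 2 preGM groups overlapped in these markers. GMP fl/BRM2 lay below preGM fl/p30 and had a lower median than preGM +/+ (-0.15 against -0.008). In GMP fl/p30 against GMP fl/+, 7 of the 28 rose and 0 fell, beside 4.69% and 1.37% of all genes. The 7 were Ccl5 (2.29), Lat, an adaptor of the T-cell receptor (2.04), Il7r (1.34), Cd7 (0.98), Cd3g (0.96), Trat1 (0.90) and Klrd1 (0.68). Of these, 3 (Ccl5, Cd7 and Lat) kept the call when replicate 1 of GMP fl/p30 was left out, and 4 when it was replicate 3 of GMP fl/+. In GMP fl/BRM2 against GMP fl/+ Lat alone rose (1.86), 1 of the 28 beside 1.89% of all genes called higher. In preGM fl/p30 against preGM +/+ Lat (1.75) and Ccl5 (1.52) rose and Cd28 fell by 0.84, beside 0.647% of all genes called higher and 1.03% lower. Ccl5 lost its call without preGM fl/p30 replicate 1 or preGM +/+ replicate 3, Lat without preGM +/+ replicate 2, and Cd28 in each of the 6 repeats with 1 array left out.

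The T-cell receptor and coreceptor genes Cd3d, Cd3e, Cd3g, Cd4, Cd8a and Cd8b1 were near the array median or below it. Other markers on the list were well above it. Nkg7, a granule protein gene of cytotoxic cells, lay at 9.84 or above on every array, and means in GMP fl/p30 and GMP fl/+ were 9.52 and 8.93 for Cd27, 9.44 and 7.39 for Lat, 9.26 and 6.97 for Ccl5, and 8.79 and 7.84 for Thy1. Of the 28 markers, 13 were below the median on all 15 arrays, Cd3d, Cd3g, Cd4, Cd5, Cd8b1, Zap70 and the NK receptor gene Ncr1 among them. Cd3g averaged 5.13 in GMP fl/p30 and 4.17 in GMP fl/+, at least 0.76 below the median of its array throughout. Cd3d lay between 4.26 and 5.91 in GMP fl/p30 and between 4.11 and 4.19 in GMP fl/+. Cd3e lay between 6.10 and 6.27 in GMP fl/p30 and between 6.16 and 6.45 in GMP fl/+. B-cell markers stood apart in 1 array, with a mean of 1.82 above the array median in preGM +/+ replicate 3, where replicates 1 and 2 had 0.374 and 0.429. Without that array the Tox difference in preGMs lay within the range given above.

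**Figure D4:**
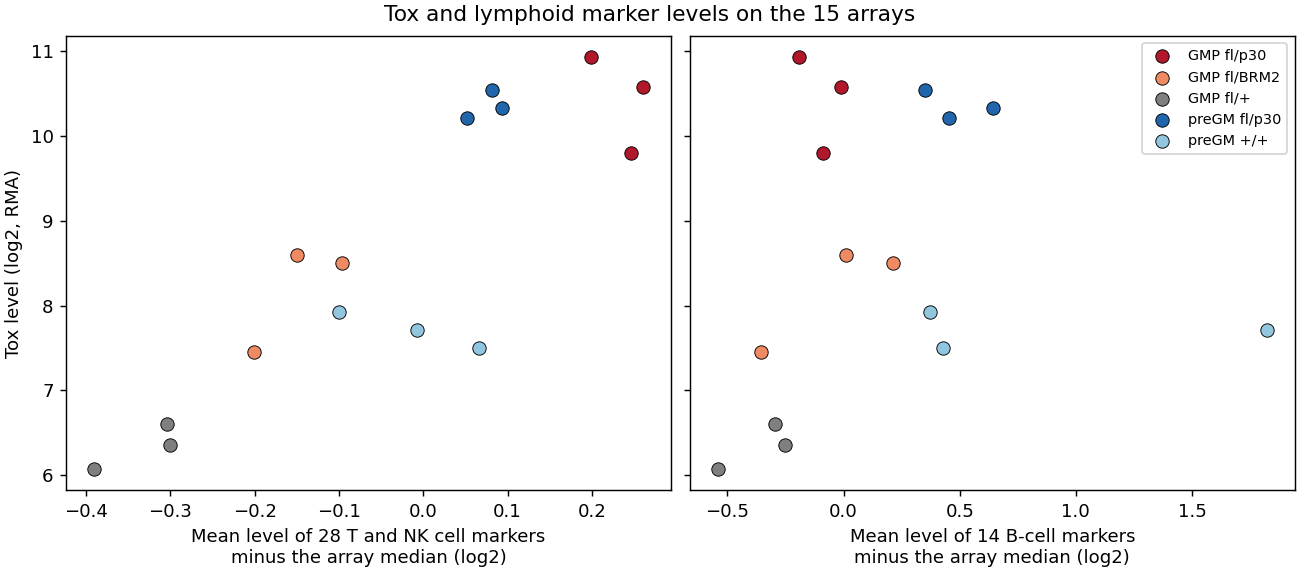
Log2 level of Tox on each array against the mean level of 28 T and NK cell markers (left) and 14 B-cell markers (right), both relative to the array median. On the left the GMP fl/p30 arrays lie furthest right (0.199 to 0.261) and the GMP fl/+ arrays furthest left and lowest (-0.391 to -0.301); on the right 1 preGM +/+ array stands at 1.82 with Tox at 7.71.

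Over the 15 arrays, the genes whose level went most closely with Tox, left aside predicted genes, were Gimap9, a GTPase gene of lymphocytes (Pearson's r 0.957), Usp3, a deubiquitinase gene (0.955), Srgap3 (0.951), Dlg3 (0.950), Thsd1 (0.943), Nol4l (0.943), Kdm5b, which encodes a histone demethylase (0.943), Arid4b (0.938), Kmt5b, which encodes a histone methyltransferase (0.937), and Cd96, a receptor gene of T and NK cells (0.937). By Spearman's rank correlation they ranked between 2 (Dlg3) and 39 (Gimap9) of the genes left once clones and predicted genes were set aside. The correlations are descriptions over arrays that share the 5 groups. Over the 5 group means alone r ran from 0.948 (Cd96) to 0.992 (Dlg3), for genes that were picked by their correlation over the same arrays. No correlation within groups was computed.

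The size of the differences varied within this set. The Cd96 mean was 8.16 in GMP fl/p30, 7.43 in GMP fl/BRM2, 5.56 in GMP fl/+, 8.24 in preGM fl/p30 and 7.11 in preGM +/+, while the Usp3 mean stayed between 9.27 and 9.82 in the 5 groups. At the opposite end stood Klhl23 (-0.924), Iqgap3 (-0.917), Vps13c (-0.897), S100a9 (-0.895) and Frrs1 (-0.895). S100a9, a calprotectin subunit of neutrophils, averaged 7.77 in GMP fl/p30, 9.30 in fl/BRM2 and 11.51 in fl/+ GMPs, 7.06 in preGM fl/p30 and 10.05 in preGM +/+, the reverse of the order of Tox except that the 2 fl/p30 groups change places. By Spearman's coefficient (-0.929) it ranked 1 at that end among the genes left without clones and predicted genes.

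**Figure D5:**
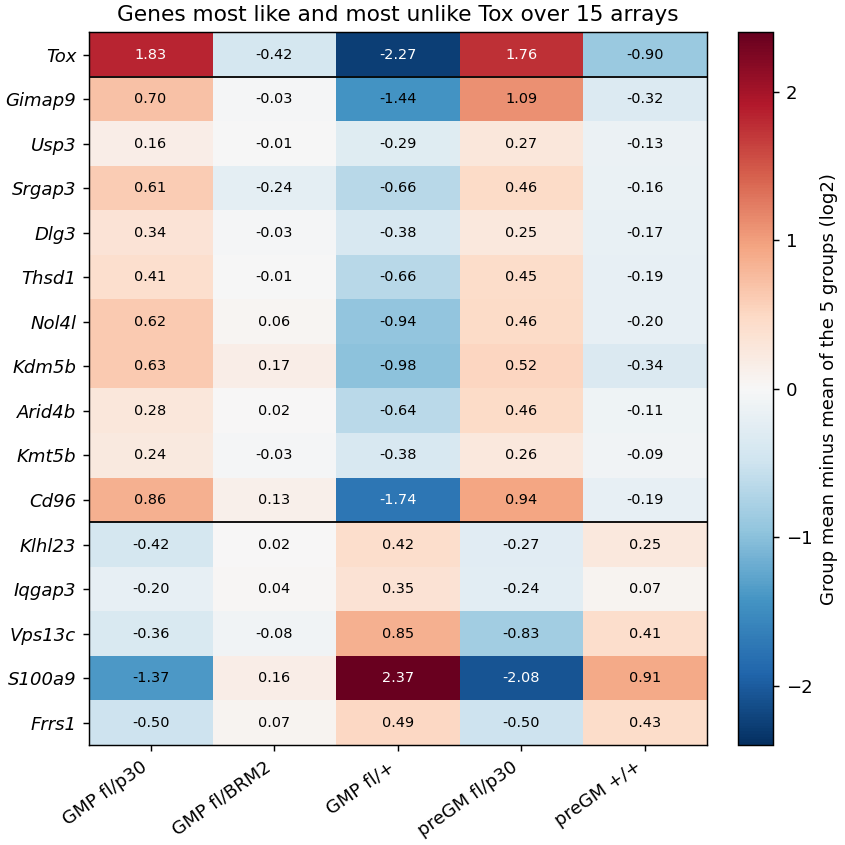
Group means of Tox, of the 10 named genes most like it and of the 5 most unlike it over 15 arrays, each as the log2 deviation from the gene's mean over the 5 groups. GMP fl/+ is the lowest group for Tox (-2.27) and for all 10 like genes, and the highest for all 5 unlike genes, S100a9 having the widest range (2.37 in GMP fl/+ and -2.08 in preGM fl/p30).

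For the other members the same measure gave Ltbp2 (0.912) and Iqub (0.896) for Tox2, Tub (0.868) and Nap1l5 (0.858) for Tox3, and Cox5a, a respiratory chain subunit (0.955), and Ubqln2, a proteasome shuttle factor (0.949), for Tox4. The Tox4-like genes had their lowest mean in GMP fl/+ as Tox4 did, Cox5a with 10.65 in GMP fl/p30 and 10.56 in GMP fl/BRM2 against 9.96 in GMP fl/+.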

How the data were processed

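Values were analysed as the authors deposited them, as log2 expression per probe set; per the submitters' processing notes they were made with affy and RMA, and no version is stated. Of 34760 probe sets, the platform annotation names 21640 with 1 symbol, 1321 with several and 11799 not at all; 21553 matched RefSeq genes (table assembly GRCm38.p6, used for names and neighbours only) and 0 symbols changed. Each of the 954 genes with more than 1 probe set was represented by that of the highest mean.

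With limma 3.58.1 in R 4.3.3, 19937 genes were fitted with 1 mean for each of the 5 groups over all 15 arrays (eBayes, no trend; residual degrees of freedom 10, prior 4.24), with Benjamini-Hochberg adjustment over all genes in each comparison and calls at an adjusted p under 0.05. Adjusted p-values in the text are limma's. Groups came from the labels. The fl/p30 preGM and GMP arrays are paired by animal number; deviations of same-animal arrays correlated at 0.334, 0.32 and 0.116 across genes. The p-values rest on 1 spread pooled over all 15 arrays, which treats the arrays of each fl/p30 mouse as independent. The animal as a block was fitted as an alternative. Arrays have no read depth, and 3 per group limits the precision.

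The members, gene lists and tests were chosen with earlier results of these data known. Named genes were the 4 members, up to 4 called genes per list by adjusted p, or up to 2 where none was called, the genes most and least correlated with Tox and the 2 most correlated with each other member, without clones and predicted genes. Further list members and the chromosome neighbours were named after their values were seen. The fit was tested on simulated data for the preGM comparison with 200 of 19937 genes changed: it recovered 82% at a log2 change of 1, with 6 false calls, and 97% at 2, with 8. Alternatives changed scaling, dim-gene filter (9969 genes kept), moderation, array weights, arrays fitted, probe set choice, a minimum log2 difference of 1, the animal block, and left out each array in turn.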

Additional observations from a re-analysis of the deposited data

How the results depend on the processing

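The Tox call in preGM fl/p30 against preGM +/+ was kept in all 15 alternatives run, with differences from 2.55 to 2.76, and the Tox call at the control step in 14 of 15 (-1.50 to -1.24 with 1 array left out in turn, here called leave-outs), failing at -1.26 without preGM +/+ replicate 1. The number of members called between GMP fl/+ and preGM +/+, 2 as reported, was 1 with only the compared arrays fitted (Tox4 adjusted p = 0.115) or with a log2 difference of at least 1 required, and 0 to 2 with 1 array left out. In GMP fl/p30 against GMP fl/+ the 0 became 1, Tox4, under trended robust moderation (adjusted p = 0.0453), array weights (0.00896) and the replicate block of animals (0.0481), and ran from 0 to 1 in the leave-outs. Array weights also gave 1 in GMP fl/BRM2 against GMP fl/+ (Tox4, adjusted p = 0.0179) and 1 in the stage dependence (Tox4, 0.0366), with leave-outs from 0 to 1 in both. Among differences that did not pass or were not tested, signs turned for Tox3 stage dependence at 0.01 with centred arrays, and with array weights for Tox3 at -0.11 in GMP fl/p30 minus GMP fl/BRM2 (0.06 as reported), at -0.02 in GMP fl/p30 against GMP fl/+ and at 0 between the fl/p30 stages, and for Tox4 at -0.13 there and at -0.03 in GMP fl/p30 minus GMP fl/BRM2. In the leave-outs the fl/p30 stage difference ran from -0.24 to 0.02 for Tox2, -0.02 to 0.13 for Tox3 and -0.16 to 0.15 for Tox4, GMP fl/p30 minus GMP fl/BRM2 from -0.16 to 0.09 for Tox2, and GMP fl/BRM2 minus GMP fl/+ from -0.15 to 0.09 for Tox2 and -0.09 to 0.12 for Tox3. The replicate block changed no other member's call. Leaving out dim genes dropped Tox3 and gave no count of members, but Tox4 passed there in GMP fl/p30 against GMP fl/+ (0.76, adjusted p = 0.0371). Calls over all genes moved widely: in GMP fl/p30 against GMP fl/BRM2 1 call became 0 to 12 in leave-outs and up to 283 with array weights; against GMP fl/+, 1209 for fl/p30 became 537 to 3078 and 172 (compared arrays only) to 4063 (weights), and 505 for fl/BRM2 became 134 to 2218 and 131 to 2187 by the same settings. In preGMs 334 became 101 to 223 in leave-outs, 173 with the minimum difference and 1167 with weights. With only the compared arrays fitted, 393 were higher and 677 lower in preGMs. Between the fl/p30 stages 128 became 26 to 120 in leave-outs, 29 with compared arrays, 366 higher and 315 lower with the random replicate block and 1948 with weights. At the control step 2036 became 636 to 4686 in leave-outs, 450 with the minimum difference and 4660 with weights. In the stage dependence 1 became 0 to 1482 in leave-outs and 1991 with weights. The leave-out maxima against GMP fl/+, at the control step and in the stage dependence were all without GMP fl/+ replicate 1. Tox is among the genes counted, also between GMP fl/p30 and GMP fl/BRM2, where nothing is read from the counts. Centring on array medians moved the share of calls that were higher at the control step to 22.5%, against 41.1% as reported, and normalizing by quantiles again moved it to 65.4%, against 77.3%, in GMP fl/p30 against GMP fl/+. The lymphoid programme count of 11 in GMP fl/p30 ran from 5 to 12 over the settings that keep all arrays, the 8 in GMP fl/BRM2 from 4 to 9 and the 4 in preGM fl/p30 from 2 to 7. The cause of these changes was not tested.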

Other observations

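The genes next to the members on their chromosomes were read as well, 2 protein-coding genes on each side, picked after the data were seen. Beside Tox, Sdcbp, which encodes syntenin, stood 0.80 ± 0.19 log2 units higher in GMPs of fl/p30 than of fl/+ mice (limma adjusted p = 0.0228) and differed by -0.78 between GMP fl/+ and preGM +/+ (adjusted p = 0.0221), while in preGM fl/p30 against preGM +/+ it differed by 0.16 (adjusted p = 0.752). Nsmaf, Car8 and Rab2a, the other 3 neighbours of Tox, were called in none of the comparisons. Beside Tox4, Rab2b, which encodes a small GTPase, differed by 1.40 in GMP fl/p30 against GMP fl/+ (adjusted p = 0.0301) and by -1.35 in GMP fl/+ against preGM +/+ (adjusted p = 0.0294). Beside Tox3, Rbl2, which encodes the retinoblastoma-related protein p130, stood 1.18 higher in GMPs of fl/p30 than of fl/+ mice (adjusted p = 0.000541) and 0.86 higher in GMP fl/BRM2 than in GMP fl/+ (adjusted p = 0.00931), although Tox3 itself was near the background. Beside Tox2, Mybl2, which encodes a cell-cycle transcription factor, differed by -1.24 in GMP fl/p30 against GMP fl/+ (adjusted p = 0.0152). In GMP fl/+ against preGM +/+, Mybl2 (1.16, adjusted p = 0.0188), Gtsf1l beside Tox2 (0.51, 0.0421) and Rbl2 (-0.55, 0.0428) were called too. Over all genes, 4.69% were higher and 1.37% lower in GMP fl/p30 against GMP fl/+. The shares were 1.89% and 0.642% in GMP fl/BRM2 against GMP fl/+, and 4.19% and 6.02% at the control step. The neighbour calls were not repeated with arrays left out.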
